A study of Mus musculus with 16 samples.

Results

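The unfolded protein response and the linked integrated stress response were followed here through 33 genes in epididymal fat, the white fat pad beside the epididymis, of male C57BL/6 mice. The 33 genes were chosen by name as endoplasmic reticulum (ER) stress genes. All 33 were found, each under 1 gene identifier, among the 27150 genes of the deposited mRNA count table. They were read in 4 roles: 14 ER chaperones and folding enzymes, 4 sensors and transcription factors of the response, 6 genes of ER-associated degradation and 9 genes of the ATF4 arm.

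The study compared 4 groups of mice. One was fed a high-fat diet (HFD) with 60% fat and given metformin, an antidiabetic biguanide. A second received the same diet with resveratrol, a plant polyphenol. Another group stayed on HFD without a drug, and the last received a normal diet. The labels give the strain as C57BL/6, an age of 6 weeks and a weight near 22 g at purchase, 8 weeks of HFD before treatment and 6 weeks of drug. They give no drug dose, and no genetic change in any group. Each library has a code of its own, and nothing in the labels says that mice were pooled. The first number of that code is shared by HFD 1, 2 and 3 and differs in HFD unmatched. It is also shared by normal diet 1, 2 and 3, by metformin 1 and unmatched, and by resveratrol 1 and 2. The labels do not say what it stands for, so it cannot be told apart from the difference between HFD unmatched and the other HFD libraries. The letters before the number differ between groups, so no library shares both letters and number with a library of another group. A difference tied to this part of the code could not be separated from the group. The tests treated every library as an independent replicate. Whether libraries that share a first number are independent was not tested, and if they are not, the p-values are too small. HFD feeding is a model of obesity with insulin resistance and not of a single-gene defect.

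Values are CPM, a gene's mRNA counts relative to a fixed library total, scaled between libraries with the trimmed mean of M values (TMM). The libraries are named by group and number: metformin 1, 2, 4 and unmatched, resveratrol 1 to 3, HFD 1, 2, 3 and unmatched, and normal diet 1 to 4. Values of a group are given in that order. Coordinates of genes are those of the deposited table, on build GRCm38 per the submitters' processing notes. The 2 libraries called unmatched carry a code found in no sample title, and their group was taken from the prefix of that code. The library resveratrol 4 held 12131 CPM of Crisp1, a secretory gene of the epididymal epithelium, against at most 16.3 CPM in the other 15 libraries, and was left out. The sequencing depth was 13350585 to 20531032 mRNA counts per library.

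Parts of the labels name retina and skeletal muscle in place of fat. The summed level of 12 adipocyte markers was 16782 to 33669 CPM in the 15 libraries. The 8 retina markers found in the table summed to 2.24 to 9.17 CPM and the 8 skeletal muscle markers to 16.5 to 119 CPM. Markers of motile ciliated epithelium summed to 461 to 1291 CPM in metformin 2, 4 and unmatched, resveratrol 2 and normal diet 2, and to 14.7 to 34.6 CPM in the other libraries. Metformin 2 also held 2168 CPM of spermatogenic markers, against 0.843 to 34.6 CPM elsewhere.

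The ER folds secreted and membrane proteins, and its chaperones hold them until they are mature. When unfolded proteins accumulate, the sensors IRE1 (gene Ern1), PERK (Eif2ak3) and ATF6 are released from the chaperone BiP (Hspa5). IRE1 splices the mRNA of the transcription factor XBP1, and ATF6 is cut to a transcription factor, and both switch on chaperone and degradation genes. PERK phosphorylates eIF2α, which slows translation in general and raises translation of ATF4. Other kinases, which sense amino acid shortage or other stress, act on the same site of eIF2α, so ATF4 targets can respond without ER stress. In fat, adipocytes secrete hormones and matrix proteins, and resident macrophages are secretory cells as well.

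The chaperone genes and the ATF4 targets also differ in the letters of their promoters. RefSeq windows of 300 bases, 250 before to 50 after the annotated start (build GRCm38.p6), were found for 28 of the 33 genes, as 29 windows. The ER stress element ERSE, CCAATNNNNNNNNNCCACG, is the textbook binding site of ATF6 with the factor NF-Y. On either strand it occurred in 7 of the 12 chaperone windows, in 2 of 5 degradation windows (Syvn1 and Derl3), in 0 of 3 sensor windows and in 0 of 9 ATF4-arm windows. Of all 32851 promoter windows, 39 held it, which is 0.119%. The compact second form ERSE-II, ATTGGNCCACG, occurred in 12 windows (0.0365%), among them Dnajb11 and Herpud1. The CEBP-ATF element TGATGNAA, the type of site through which ATF4 acts, occurred in 3.97% of all windows and in Asns, Chac1, Trib3 and Herpud1. The core TGACGTG of the UPR element occurred in 2.01% of windows and among the 33 genes in Hspa5. None of these searched motifs overlapped another in the members shown. A match is a description of letters and not evidence of binding.

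The sequences are shown for the chaperones that carried ERSE or ERSE-II and whose mRNA was called higher on HFD, and for the ATF4-arm genes with a CEBP-ATF element. This choice used the HFD result, so it shows no link of motif with change. ERSE was also in Creld2, Dnajc3, Syvn1 and Derl3, and ERSE-II in Herpud1, none of them called on HFD. Of the chaperones called higher, Sdf2l1 and Pdia3 held neither form, and Manf and Hyou1 had no window. Capitals mark the motif, and each sequence reads 5′ to 3′ along the gene, so a motif on the other strand appears as its reverse complement.
Hspa5, chr2:34771923-34772053, plus strand: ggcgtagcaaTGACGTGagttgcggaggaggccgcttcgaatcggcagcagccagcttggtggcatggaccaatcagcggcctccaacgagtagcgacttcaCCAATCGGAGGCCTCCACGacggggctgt
Calr, chr8:84847065-84847103, minus strand: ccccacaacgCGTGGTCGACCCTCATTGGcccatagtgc
Hsp90b1, chr10:86705523-86705666, minus strand: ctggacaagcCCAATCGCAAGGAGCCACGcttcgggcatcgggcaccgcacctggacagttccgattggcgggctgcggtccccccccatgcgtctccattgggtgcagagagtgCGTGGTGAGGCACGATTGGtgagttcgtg
Canx, chr11:50325790-50325828, minus strand: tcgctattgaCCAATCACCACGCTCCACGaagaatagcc
Pdia6, chr12:17266481-17266519, plus strand: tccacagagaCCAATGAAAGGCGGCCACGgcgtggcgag
Dnajb11, chr16:22857842-22857872, plus strand: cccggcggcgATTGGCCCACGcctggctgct
Asns, chr6:7693215-7693242, minus strand: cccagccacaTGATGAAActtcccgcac
Trib3, chr2:152344029-152344056, minus strand: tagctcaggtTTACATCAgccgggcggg
Chac1, chr2:119351039-119351066, plus strand: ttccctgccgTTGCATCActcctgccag
In Hspa5 the first capitals are the UPR core and the second the ERSE. Hsp90b1 carries ERSE on both strands. Calr holds the ERSE on the reverse strand, reading CGTGG first and ATTGG last. Asns has its CEBP-ATF element on the gene's own strand, while those of Trib3 and Chac1 lie on the reverse strand.

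**Figure D1:**
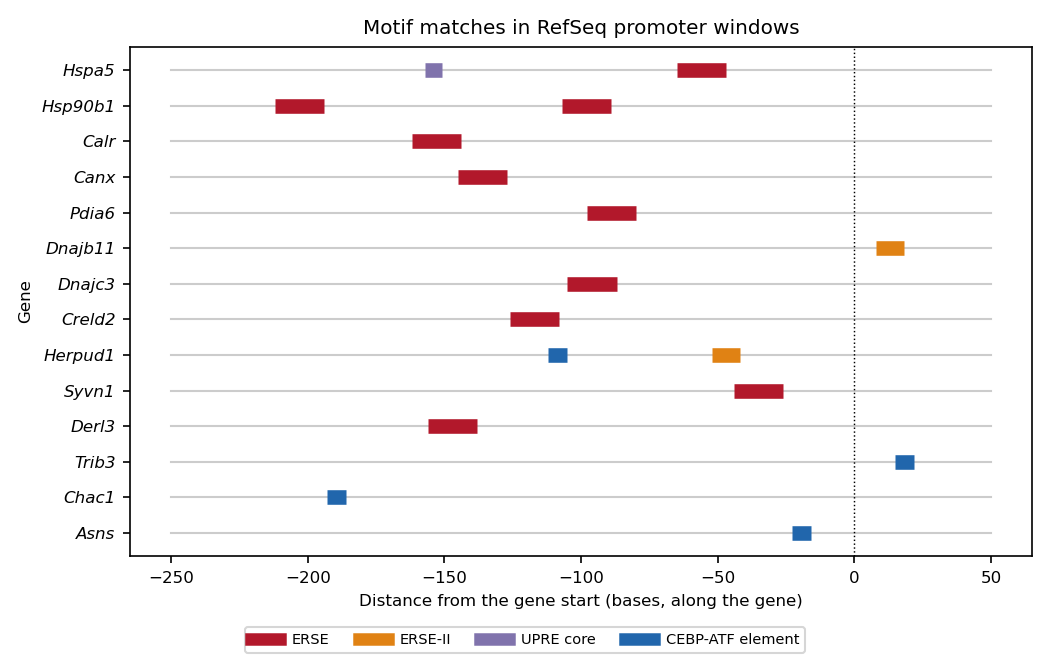
Position of each motif match in the promoter windows of the members that held 1, in bases from the annotated gene start along the gene (x axis), 1 line per gene. Red bars (ERSE) and orange bars (ERSE-II) lie in chaperone and degradation genes, and blue bars (CEBP-ATF element) lie in Asns, Chac1, Trib3 and Herpud1.

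The first comparison, HFD against normal diet, asks what the diet does to these genes. Chaperones and folding enzymes were higher on HFD and most of the ATF4 arm was lower. The edgeR quasi-likelihood test with Benjamini-Hochberg adjustment over 17535 genes called 13 of the 33 genes higher (39.4%) at an adjusted p under 0.05. The diet and the libraries of the other groups enter 1 fit, which shares its estimate of spread. Of all genes tested, 13.8% were called higher. It called 5 of the 33 lower (15.2%), against 9.34% of all genes. All 33 genes passed the filter on low counts and were tested.

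By role, 10 of 14 chaperones and folding enzymes were called higher and 0 lower, with a median log2 fold change of 0.61, against -0.04 over all genes tested. All 14 had a positive log2 fold change. Of the 9 genes of the ATF4 arm, 5 were called lower and 1 higher, with a median of -0.45. Of the 4 sensors and factors 1 was called higher, and of the 6 degradation genes 1 was called higher.

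**Figure D2:**
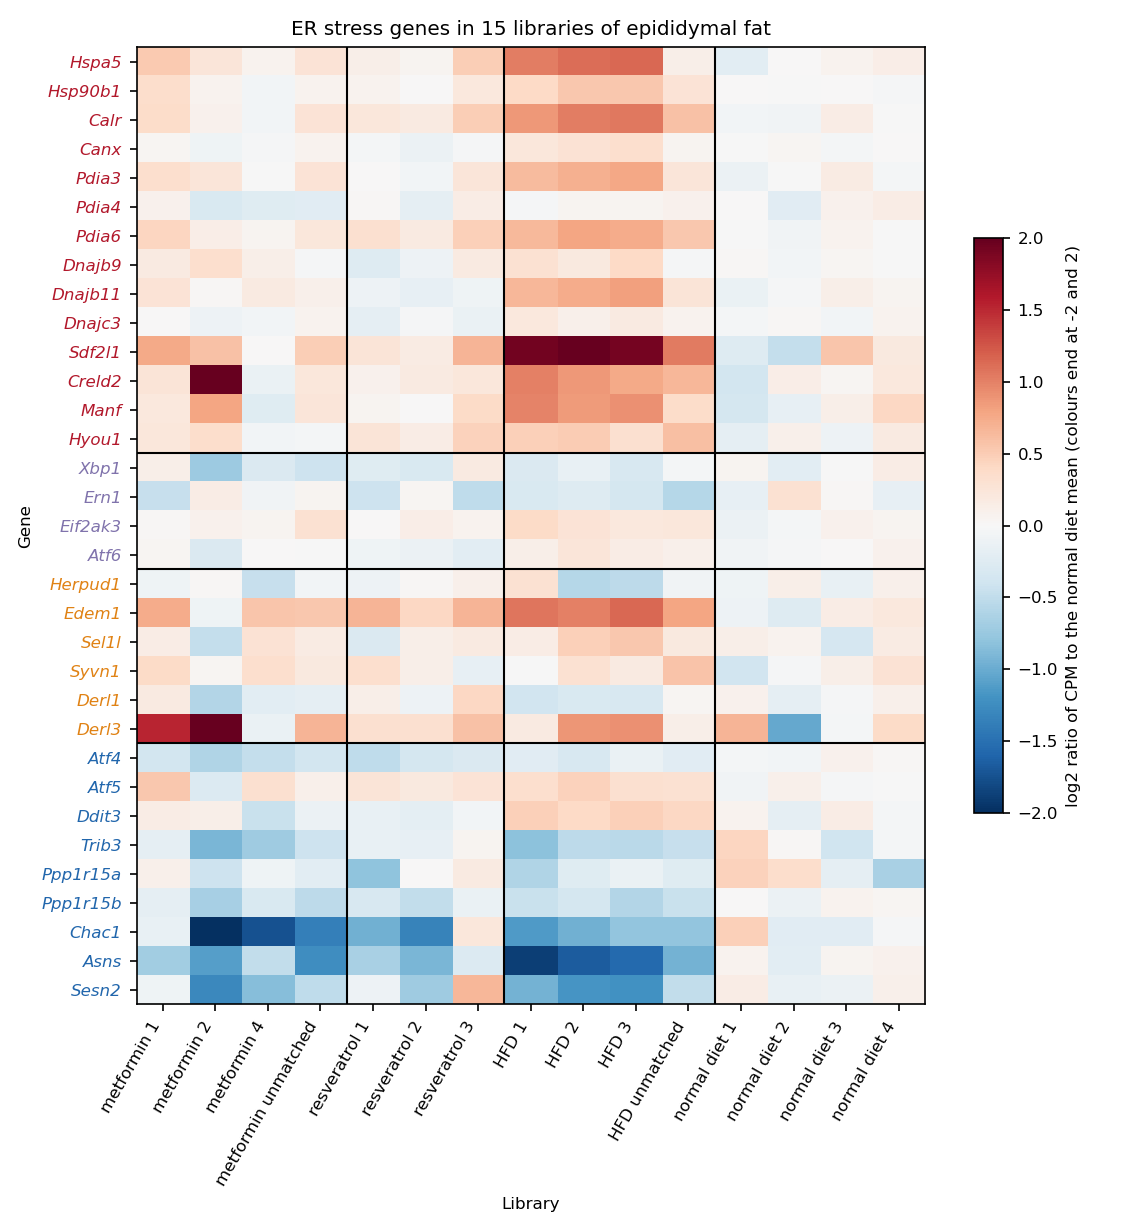
Level of the 33 genes (rows, coloured by role) in the 15 libraries (columns) as log2 ratio of CPM to the normal diet mean; red is higher and blue lower, and the colours end at -2 and 2. Of the 14 chaperones, 12 (all but Hyou1 and Pdia4) are lower in HFD unmatched than in HFD 1, 2 and 3, Pdia4 stays near 0 in all 4 HFD libraries, and Asns, Chac1 and Sesn2 are blue in all 4 HFD libraries.

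Among chaperones, Sdf2l1, a partner of the J-domain protein ERdj3 in the ER lumen, changed most. Its gene (chr16:17130138-17132383, ENSMUSG00000022769) measured 38.4, 41.8, 37.97 and 20.6 CPM in the HFD libraries, against 8.39, 7.24, 14.7 and 11.5 CPM on normal diet. The 4 HFD libraries lay above all 4 normal diet libraries, with HFD unmatched nearest to them. The difference was 3.32-fold (log2 fold change 1.73 ± 0.27 SE, adjusted p = 0.00102). Hspa5 (chr2:34771970-34777547, ENSMUSG00000026864) encodes the chaperone BiP that holds the stress sensors inactive. It measured 611, 647, 662 and 323 CPM on HFD, against 258, 301, 315 and 326 CPM on normal diet. HFD 1, 2 and 3 were close to each other and far above every normal diet library, while HFD unmatched lay within the normal diet range. Over all 4 libraries Hspa5 was 1.87-fold higher (log2 fold change 0.90 ± 0.20 SE, adjusted p = 0.0068).

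The lectin chaperones bind sugar chains of maturing glycoproteins. Calr, the soluble calreticulin, measured 544, 607, 619.5 and 446 CPM on HFD, against 287, 284, 330.4 and 296 CPM on normal diet, with no overlap (log2 fold change 0.89 ± 0.13 SE, adjusted p = 0.00066). Canx, its membrane-bound relative calnexin, measured 291, 302, 313 and 256 CPM on HFD, against 245, 256, 242 and 248 CPM on normal diet. All 4 HFD values of Canx were above the normal diet range, HFD unmatched by very little, and the change was small (log2 fold change 0.23 ± 0.07 SE, adjusted p = 0.0313). Pdia3 is the disulfide isomerase that works with both. It measured 363, 384, 400.1 and 277 CPM on HFD, against 216, 232, 263 and 228 CPM on normal diet (log2 fold change 0.60 ± 0.12 SE, adjusted p = 0.00477). Again the groups did not overlap and HFD unmatched was the lowest HFD library.

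Hsp90b1, the ER member of the HSP90 family, measured 484, 533, 531 and 440.4 CPM on HFD, against 367, 365, 368 and 361 CPM on normal diet (log2 fold change 0.44 ± 0.10 SE, adjusted p = 0.00618). Its normal diet libraries lay very close together and below every HFD library. Pdia6, another disulfide isomerase, measured 222, 244, 235 and 204 CPM on HFD, against 140.3, 135, 149 and 141 CPM on normal diet (log2 fold change 0.68 ± 0.09 SE, adjusted p = 0.000614). No HFD library of Pdia6 came near the normal diet range, HFD unmatched included. The cochaperone Dnajb11 (ERdj3) measured 49.95, 52.6, 55.7 and 37.8 CPM on HFD, against 28.7, 31.04, 34.3 and 32.7 CPM on normal diet (log2 fold change 0.63 ± 0.11 SE, adjusted p = 0.00209). HFD 1, 2 and 3 stood well above normal diet and HFD unmatched just above it.

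Hyou1, which exchanges nucleotides on BiP, measured 127, 129, 113 and 137 CPM on HFD, against 80.1, 97.5, 84.2 and 103 CPM on normal diet (log2 fold change 0.47 ± 0.12 SE, adjusted p = 0.0107). Here HFD unmatched was the highest library. Manf, a small protein of the ER lumen that is also secreted, measured 52.4, 47.7, 49.9 and 34.3 CPM on HFD, against 20.8, 23.5, 28.6 and 35.1 CPM on normal diet (log2 fold change 0.77 ± 0.22 SE, adjusted p = 0.023). Its groups overlapped, since HFD unmatched lay below normal diet 4. The gene model of Manf overlaps those of Dcaf1 and Rbm15b. In all, 12 of the 33 members overlap another gene model, among them Hsp90b1 (by 3918 bases with 1810014B01Rik) and Ppp1r15b (by 603 bases with Gm26616). The strand setting of the counting is not known, and reads of overlapping genes could not be told apart here.

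The other 4 chaperones were not called. Creld2, a disulfide isomerase induced by ER stress, averaged 25.3 ± 2.72 CPM on HFD and 14.4 ± 2.37 CPM on normal diet (SD, n = 4 each; log2 fold change 0.81 ± 0.37 SE, adjusted p = 0.127). Its 4 HFD libraries lay above its 4 normal diet libraries. The fit shares 1 estimate of spread over all groups, and Creld2 was 56.3 CPM in metformin 2. With that library left out Creld2 was called higher on HFD (log2 fold change 0.82 ± 0.13 SE, adjusted p = 0.00105). The J-domain cochaperone Dnajb9 averaged 49.1 ± 6.11 CPM on HFD and 41.9 ± 1.14 CPM on normal diet (log2 fold change 0.23 ± 0.11 SE, adjusted p = 0.15). Dnajc3, of the same family, averaged 209 ± 9.93 CPM on HFD and 189.6 ± 7.46 CPM on normal diet (log2 fold change 0.14 ± 0.06 SE, adjusted p = 0.131). Pdia4, a disulfide isomerase, had almost equal means, 159.9 ± 5.66 CPM on HFD and 156 ± 16.8 CPM on normal diet (log2 fold change 0.04 ± 0.10 SE, adjusted p = 0.824).

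**Figure D3:**
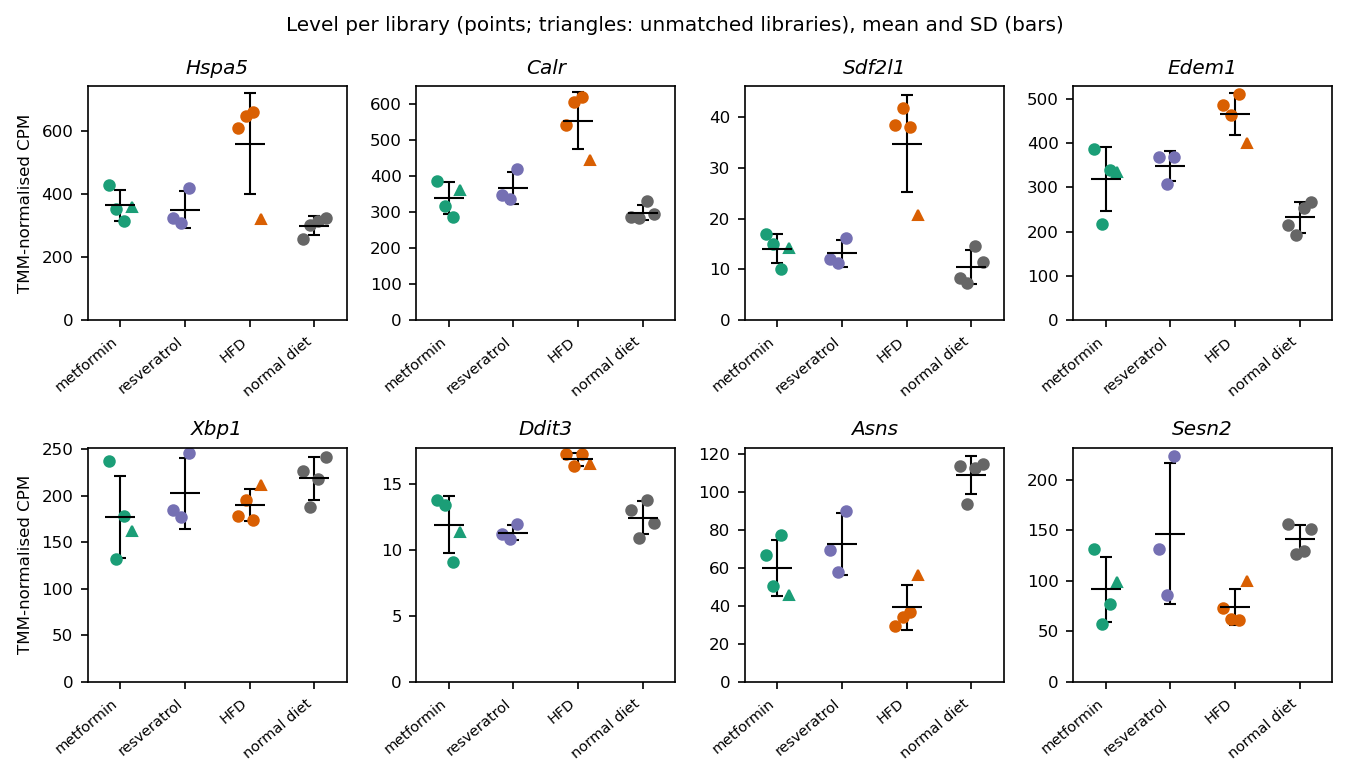
TMM-normalised CPM of 8 members in each library (points, with triangles for unmatched libraries) and mean with SD (bars), groups from left to right metformin, resveratrol, HFD and normal diet; each y axis starts at 0. Sdf2l1 reaches 37.97 to 41.8 CPM in HFD 1, 2 and 3, and Asns is lowest on HFD, at 29.3 to 56.4 CPM.

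Of the 4 sensors and factors, Eif2ak3 was called. Eif2ak3, which encodes PERK, measured 58.1, 53.7, 51.7 and 51.97 CPM on HFD, against 41.2, 43.4, 47.5 and 46.3 CPM on normal diet (log2 fold change 0.27 ± 0.08 SE, adjusted p = 0.0217). The groups did not overlap, but the step was small. Xbp1 measured 179, 196, 174 and 211 CPM on HFD, against 227, 188, 218 and 242 CPM on normal diet, with wide overlap (log2 fold change -0.20 ± 0.16 SE, adjusted p = 0.381). Counts per gene do not separate spliced from unspliced Xbp1 mRNA, so IRE1 activity is not read here. Ern1, which encodes IRE1, measured 61.7, 63.8, 59.96 and 51.2 CPM on HFD, against 67.99, 94.6, 77.9 and 68.1 CPM on normal diet. All 4 HFD values of Ern1 were under the normal diet range and the test did not call it (log2 fold change -0.38 ± 0.16 SE, adjusted p = 0.0945). Atf6 measured 92.1, 100.46, 94.2 and 90.96 CPM on HFD, against 80.5, 83.97, 84.96 and 90.6 CPM on normal diet (log2 fold change 0.15 ± 0.08 SE, adjusted p = 0.158). Its groups did not overlap and it was not called either.

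In ER-associated degradation, which returns misfolded proteins to the cytosol, Edem1 stood out. The gene encodes a lectin-like protein that hands misfolded glycoproteins to the degradation machinery. The gene lies at chr6:108828641-108859356, ENSMUSG00000030104. It measured 486, 463, 511 and 400.3 CPM on HFD, against 216, 192, 254 and 268 CPM on normal diet. No library overlapped, and Edem1 was 2-fold higher on HFD (log2 fold change 1.00 ± 0.16 SE, adjusted p = 0.0015). The ubiquitin ligase Syvn1 (Hrd1) averaged 66.6 ± 11.3 CPM on HFD and 55.8 ± 10.7 CPM on normal diet, and its adaptor Sel1l 226 ± 30.2 CPM and 179 ± 26.4 CPM (SD, n = 4 each). Neither was called, with log2 fold change 0.25 ± 0.16 SE, adjusted p = 0.257 for Syvn1 and log2 fold change 0.34 ± 0.17 SE, adjusted p = 0.17 for Sel1l. Herpud1, a membrane scaffold of that complex, averaged 62.9 ± 18.6 CPM on HFD and 71.02 ± 6.46 CPM on normal diet (log2 fold change -0.18 ± 0.17 SE, adjusted p = 0.479). The derlins Derl1 (log2 fold change -0.23 ± 0.16 SE, adjusted p = 0.3) and Derl3 (log2 fold change 0.46 ± 0.53 SE, adjusted p = 0.555), membrane proteins of the export step, were not called. Derl3 was the least abundant member, at 1.07 ± 0.316 CPM on HFD and 0.787 ± 0.343 CPM on normal diet.

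Within the ATF4 arm, Asns, asparagine synthetase and a classical ATF4 target, changed most. The gene lies at chr6:7675169-7693254, ENSMUSG00000029752. It measured 29.3, 34.2, 36.8 and 56.4 CPM on HFD, against 114, 93.7, 113 and 115 CPM on normal diet. All 4 HFD libraries lay far below all normal diet libraries, a 2.78-fold lower level (log2 fold change -1.47 ± 0.22 SE, adjusted p = 0.000855). Sesn2, a stress-induced regulator of mTORC1, measured 73.2, 62.3, 60.8 and 100.14 CPM on HFD, against 156, 127, 129.7 and 151 CPM on normal diet (log2 fold change -0.93 ± 0.29 SE, adjusted p = 0.0363). Trib3, a pseudokinase induced by ATF4 and CHOP, measured 11.02, 13.5, 13.3 and 14.1 CPM on HFD, against 26.2, 19.6, 14.7 and 18.8 CPM on normal diet (log2 fold change -0.61 ± 0.18 SE, adjusted p = 0.0283). Sesn2 and Trib3 were each below the normal diet range in all 4 HFD libraries.

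Atf4 itself measured 79.8, 74.8, 85.5 and 79.98 CPM on HFD, against 90.8, 90.2, 99.1 and 94.7 CPM on normal diet (log2 fold change -0.23 ± 0.07 SE, adjusted p = 0.0364). The groups did not overlap. These are mRNA levels, while ATF4 is controlled mainly in translation. Ppp1r15b (CReP), a subunit that directs the phosphatase of eIF2α, measured 129, 136, 117 and 128 CPM on HFD, against 175, 160.0, 183 and 179.9 CPM on normal diet (log2 fold change -0.45 ± 0.11 SE, adjusted p = 0.00947). Its stress-induced relative Ppp1r15a (GADD34) averaged 11.3 ± 1.48 CPM on HFD and 14.5 ± 4.77 CPM on normal diet, with overlap (log2 fold change -0.36 ± 0.25 SE, adjusted p = 0.308).

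One member of the arm went the other way. Ddit3, which encodes the transcription factor CHOP, measured 17.3, 16.4, 17.3 and 16.5 CPM on HFD, against 13.01, 10.9, 13.8 and 12.04 CPM on normal diet (log2 fold change 0.44 ± 0.13 SE, adjusted p = 0.0234). Its 4 HFD libraries were nearly equal and all above the normal diet range. The Ddit3 gene model overlaps Mars by 68 bases. Atf5, a relative of ATF4, averaged 81.7 ± 4.36 CPM on HFD and 63.8 ± 3.37 CPM on normal diet and was not called (log2 fold change 0.36 ± 0.13 SE, adjusted p = 0.0619), though it was without metformin 2 (log2 fold change 0.37 ± 0.09 SE, adjusted p = 0.00824). Chac1, a glutathione-degrading enzyme, averaged 12.1 ± 1.35 CPM on HFD and 23.2 ± 5.73 CPM on normal diet (log2 fold change -0.94 ± 0.41 SE, adjusted p = 0.11), and its 4 HFD libraries lay under its normal diet range. Without metformin 1 it was called lower (log2 fold change -0.95 ± 0.30 SE, adjusted p = 0.0388).

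**Figure D4:**
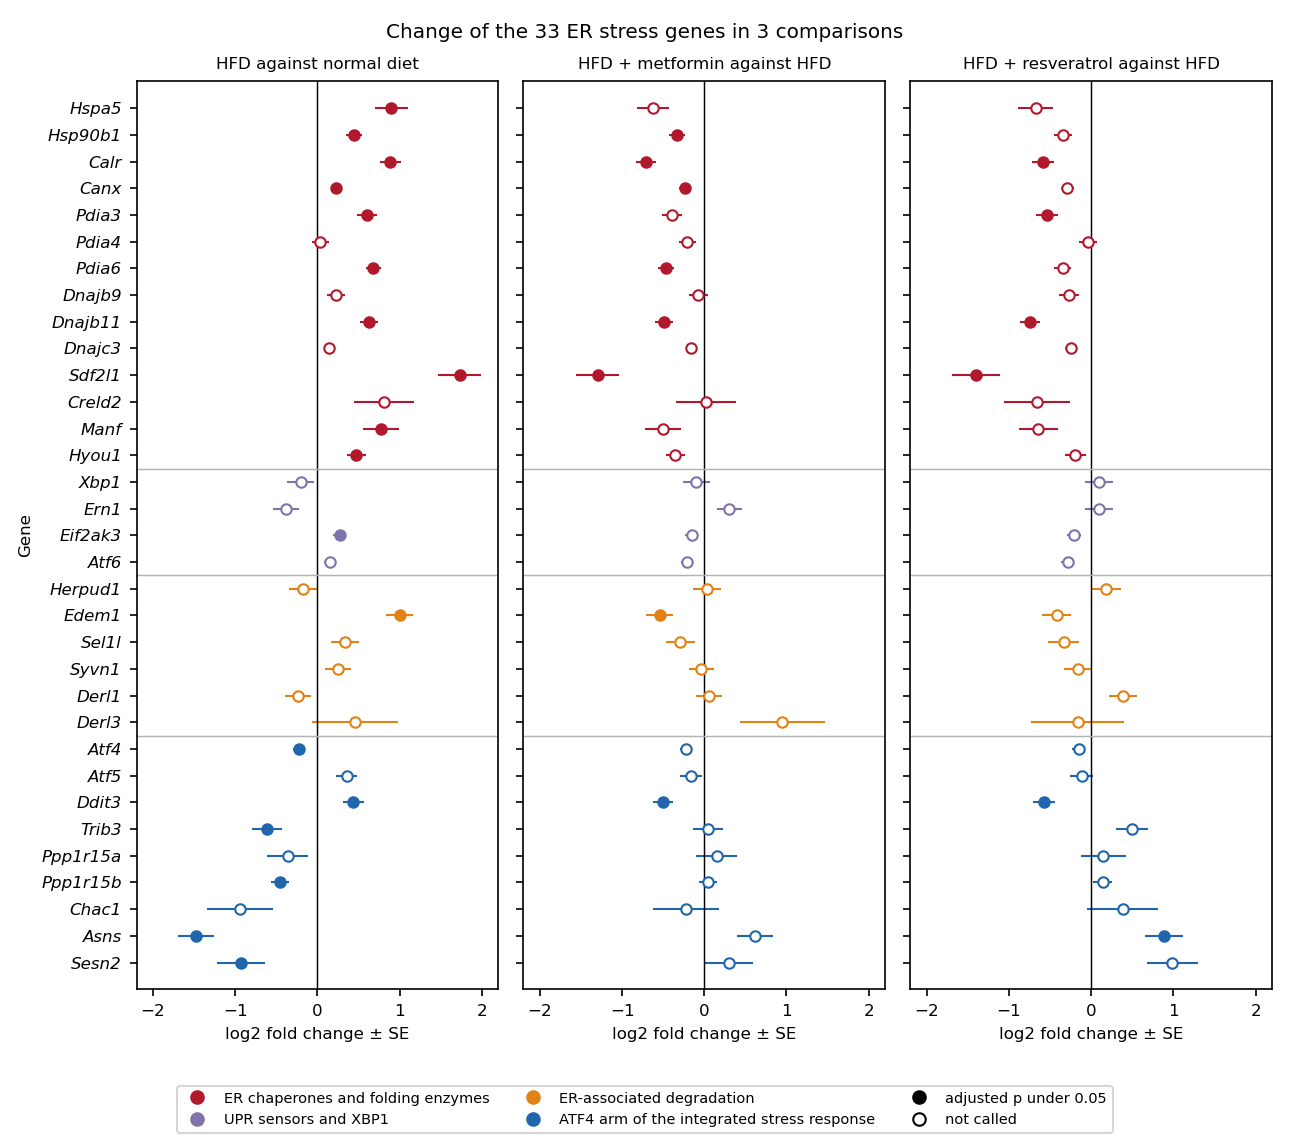
Log2 fold change with standard error (x axes) of the 33 genes in 3 comparisons, coloured by role; filled points passed an adjusted p of 0.05. On HFD against normal diet all 14 chaperones lie right of 0, and against HFD 13 of 14 under metformin and all 14 under resveratrol lie left of 0.

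Averaged over its 14 members, the chaperone group lay 0.67, 0.70, 0.71 and 0.35 log2 units above the normal diet mean in HFD 1, 2, 3 and unmatched, against -0.12 to 0.09 in normal diet libraries. The ATF4 arm lay at -0.58, -0.49, -0.46 and -0.32 in the same HFD libraries, against -0.06 to 0.17 on normal diet. Each of the 4 HFD libraries thus had both groups outside the normal diet range, in opposite directions. Per length, Calr, Hsp90b1 and Hspa5 were the most abundant of the 33 on normal diet, at 147, 137 and 129 CPM per kb of transcript, without TMM scaling. Asns was 24th of 33 on this scale on HFD and 10th on normal diet, and Sdf2l1 was 18th on HFD and 31st on normal diet.

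Macrophage markers were higher in HFD 1, 2 and 3 than on normal diet. Their sum over 14 genes was 5389, 6077, 6243 and 1979 CPM in HFD 1, 2, 3 and unmatched, against 1480 to 2506 CPM on normal diet, and 11 of the 14 were called higher. None of the 14 was at 0 in any library. In bulk tissue more cells of a type and more RNA per cell cannot be told apart. HFD unmatched had a macrophage sum inside the normal diet range. Among chaperones it lay within the normal diet range for Hspa5, Manf, Dnajb9 and Pdia4. For the other chaperones it lay above every normal diet library, for Canx and Dnajc3 by very little. HFD unmatched was above every normal diet library for Edem1 and below every one for Asns. Fibroblast and progenitor markers summed to 6426, 6410, 6525 and 3483 CPM in HFD 1, 2, 3 and unmatched, against 2580 to 5233 CPM on normal diet. Of these 8 markers 1 was called higher and 2 lower. Plasma cells are rich in these chaperones, and their 9 markers summed to 154 to 295 CPM on HFD and 209 to 410 CPM on normal diet. Of the 7 tested, 2 were called higher on HFD (28.6%, against 13.8% of all genes). Another 1 was called lower (14.3%, against 9.34% of all genes). Markers of epididymis and seminal vesicle, 12 of them in the table, summed to 0.176 to 4.68 CPM on HFD, with 7 to 10 of the 12 at 0. On normal diet they summed to 40.7, 304, 1.31 and 1163 CPM in libraries 1 to 4, with 2 to 7 of the 12 at 0, and 5 of the 10 tested were called lower on HFD. Of the 18 members called on HFD, 14 kept their call without normal diet 4 and 12 without normal diet 2. Without normal diet 1 it was 13 and without normal diet 3 it was 15. The part of these cell types in the result was not tested.

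**Figure D5:**
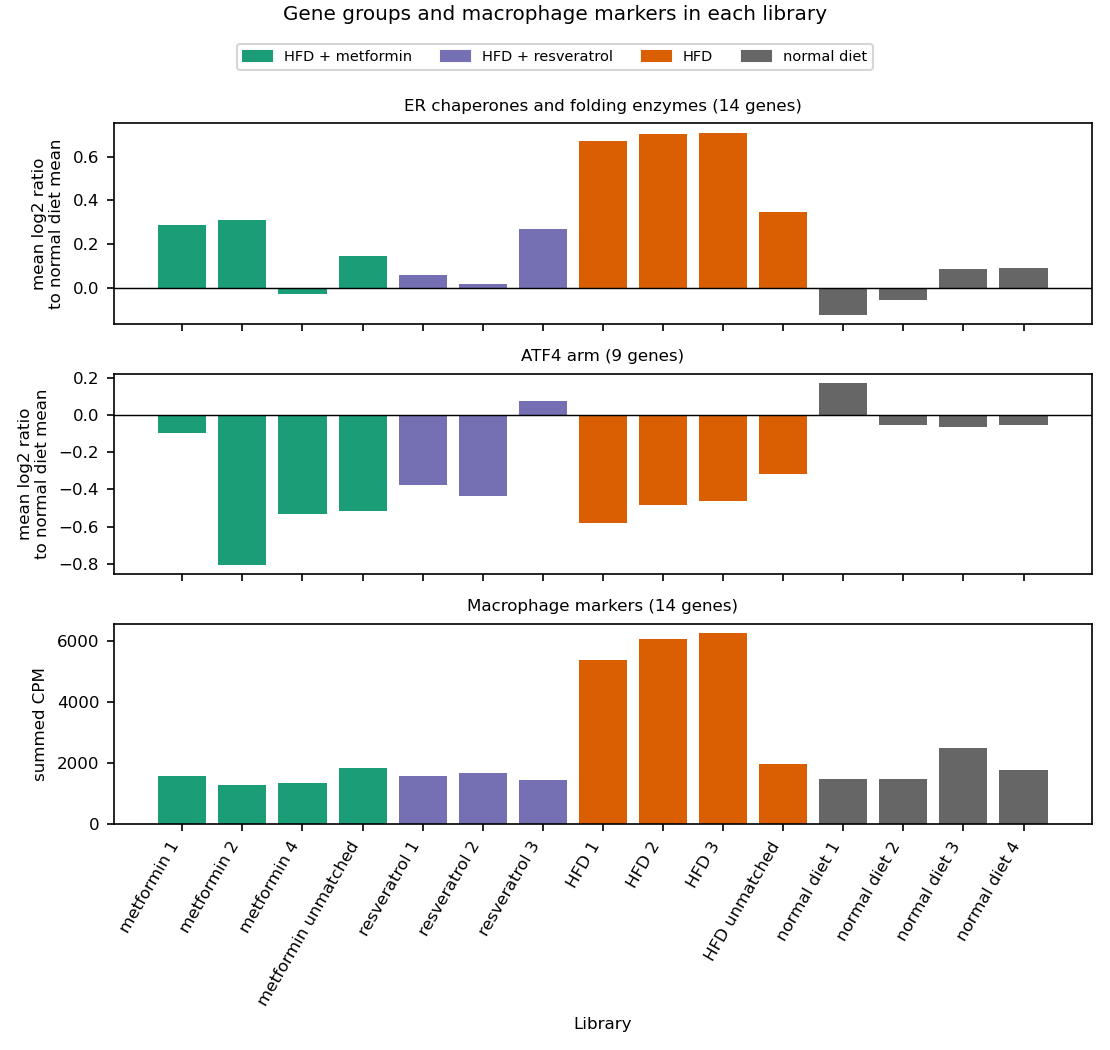
Mean log2 ratio to the normal diet mean of the 14 chaperones (top) and the 9 ATF4-arm genes (middle), and summed CPM of 14 macrophage markers (bottom), in each of the 15 libraries, coloured by group. HFD 1, 2 and 3 are highest in the top and bottom panels, while HFD unmatched reaches 0.35 in the top panel with 1979 CPM of macrophage markers.

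The calls on HFD depended on which libraries were fitted. With all 16 libraries 3 members were called (Edem1 higher, Asns and Ppp1r15b lower). In that fit 921 of all 17337 genes tested were called higher and 610 lower. Without HFD 1 the count of members was 9 higher and 2 lower. Of the 18 calls, 11 held whichever of the 15 libraries was left out: Hspa5, Hsp90b1, Calr, Pdia3, Pdia6, Dnajb11, Sdf2l1, Hyou1, Edem1, Asns and Ppp1r15b.

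Other genes of the same pathways were read from lists chosen by function. Of 18 tested further ER folding genes, 7 were called higher on HFD (38.9%, against 13.8% of all genes) and 0 lower, with a median log2 fold change of 0.26. P4hb, the main protein disulfide isomerase, averaged 533 ± 73.6 CPM on HFD and 370.1 ± 12.8 CPM on normal diet (log2 fold change 0.53 ± 0.11, adjusted p = 0.00524). Erp29 (log2 fold change 0.47 ± 0.12, adjusted p = 0.0164) and Pdia5 (log2 fold change 0.78 ± 0.16, adjusted p = 0.00467), folding factors of the ER lumen, were also higher. Of 23 genes of the translocon, signal peptidase and glycosylation, 8 were higher (34.8%) and 0 lower (median 0.27). Sec61b, a subunit of the protein-conducting channel, averaged 29.9 ± 3.34 CPM on HFD and 15.9 ± 0.875 CPM on normal diet (log2 fold change 0.91 ± 0.12, adjusted p = 0.00053). The oligosaccharyltransferase subunit Ostc (log2 fold change 0.64 ± 0.14, adjusted p = 0.00755) and the signal peptidase Sec11c (log2 fold change 0.64 ± 0.14, adjusted p = 0.00591) were higher too.

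Of 14 further degradation genes, 4 were higher (28.6%, against 13.8% of all genes) and 0 lower, among them Edem2 (log2 fold change 0.47 ± 0.09, adjusted p = 0.00414), Man1b1 (log2 fold change 0.36 ± 0.10, adjusted p = 0.0236) and the ATPase Vcp (log2 fold change 0.35 ± 0.09, adjusted p = 0.0117). Of 10 other eIF2α kinases and ATF6-like factors 4 were higher (40%) and 0 lower, led by Creb3 (log2 fold change 0.73 ± 0.10, adjusted p = 0.000627), with Creb3l1 (log2 fold change 0.47 ± 0.14, adjusted p = 0.0304) and Atf6b (log2 fold change 0.40 ± 0.11, adjusted p = 0.02). Of 29 further ATF4 targets 6 were higher (20.7%) and 3 lower (10.3%, close to the 9.34% of all genes called lower), with a median of 0.18. Psat1, an enzyme of serine synthesis, averaged 192 ± 16.5 CPM on HFD and 92.01 ± 11.1 CPM on normal diet (log2 fold change 1.06 ± 0.15, adjusted p = 0.000768). Vldlr, a lipoprotein receptor, was higher (log2 fold change 0.93 ± 0.16, adjusted p = 0.00181), while Ddit4, an inhibitor of mTORC1, averaged 62.9 ± 18.7 CPM on HFD and 158 ± 43.4 CPM on normal diet (log2 fold change -1.33 ± 0.27, adjusted p = 0.00455).

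Hspa5 counts were also divided among transcripts in an unusual way in 1 of the HFD libraries. The 2613-base transcript ENSMUST00000100171 held 54.3% of Hspa5 counts in HFD unmatched, against 89.3% to 89.8% in HFD 1, 2 and 3 and 87.2% to 90.1% on normal diet. The 3672-base transcript ENSMUST00000028222 held 31.9% there and 6.74% to 8.96% in those 7 libraries. The left-out library resveratrol 4 had a similar division, 50.6% and 37.6%. The rule by which reads were given to transcripts is not given in the sources used here. This pattern was seen after the values had been examined and was not tested.

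The second comparison asks what metformin changes on HFD. Chaperones were lower under metformin, with 6 of 14 called, while 1 of the 9 genes of the ATF4 arm was called. Of the 33 genes 8 were called lower (24.2%), against 7.84% of all genes, and 0 were called higher, against 6.09% of all genes. DESeq2 called 14 members lower and 1 higher, against 2080 lower and 2233 higher of the 17937 genes it tested. By role, 6 of 14 chaperones were lower (median -0.37, against 0.04 over all genes), as were 1 of 6 degradation genes, 1 of 9 ATF4-arm genes (median 0.05) and 0 of 4 sensors. These HFD libraries are those of the first comparison, so a high HFD value enters both.

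Sdf2l1 measured 17.1, 15.04, 10.1 and 14.2 CPM in the metformin libraries, all below the HFD value nearest to them, 20.6 CPM (log2 fold change -1.30 ± 0.26 SE, adjusted p = 0.0131). Calr measured 387, 318, 288 and 363 CPM under metformin, against 446 to 620 CPM (lowest to highest) on HFD (log2 fold change -0.71 ± 0.13 SE, adjusted p = 0.012). Pdia6 measured 189.7, 154, 147 and 165 CPM under metformin, against 204 to 244 CPM on HFD (log2 fold change -0.47 ± 0.09 SE, adjusted p = 0.0125). For these 3 genes no metformin library reached the HFD range. Of the 8 members called, only these 3 kept their call whichever library was left out. Dnajb11 measured 38.3, 32.1, 35.99 and 33.9 CPM under metformin, against 37.8 to 55.7 CPM on HFD, with metformin 1 just above HFD unmatched (log2 fold change -0.48 ± 0.11 SE, adjusted p = 0.0179). Hsp90b1 measured 466, 382, 353 and 384 CPM under metformin, against 440.4 to 533 CPM on HFD, and metformin 1 reached into that range (log2 fold change -0.33 ± 0.10 SE, adjusted p = 0.042). Canx measured 254, 233, 244 and 259 CPM under metformin, against 256 to 313 CPM on HFD (log2 fold change -0.23 ± 0.07 SE, adjusted p = 0.0463).

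The remaining chaperones that had been called on HFD were not called under metformin. Hspa5 measured 430.4, 352, 315 and 361 CPM, against 323 to 662 CPM on HFD (log2 fold change -0.62 ± 0.20 SE, adjusted p = 0.0522). All metformin values of Hspa5 lay below HFD 1, 2 and 3, and metformin 4 lay below HFD unmatched. Without HFD unmatched Hspa5 was called lower (log2 fold change -0.80 ± 0.13 SE, adjusted p = 0.00174). Pdia3 measured 296, 276, 232 and 284 CPM under metformin, against 277 to 400.1 CPM on HFD (log2 fold change -0.39 ± 0.12 SE, adjusted p = 0.0504). Hyou1 measured 106, 116, 86.9 and 88.7 CPM, against 113 to 137 CPM on HFD (log2 fold change -0.35 ± 0.11 SE, adjusted p = 0.056). Manf measured 30.7, 45.8, 22.4 and 31.3 CPM, against 34.3 to 52.4 CPM on HFD, with metformin 2 the highest of its group (log2 fold change -0.50 ± 0.22 SE, adjusted p = 0.119). For Pdia3 and Hyou1 the adjusted p lay close to the threshold.

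Edem1 measured 387, 216, 339 and 335 CPM under metformin, against 400.3 to 511 CPM on HFD, without overlap (log2 fold change -0.54 ± 0.16 SE, adjusted p = 0.0457). Ddit3 measured 13.8, 13.4, 9.07 and 11.4 CPM under metformin, against 16.4 to 17.3 CPM on HFD, also without overlap (log2 fold change -0.50 ± 0.13 SE, adjusted p = 0.025). Asns measured 66.8, 50.5, 77.2 and 45.6 CPM under metformin, against 29.3 to 56.4 CPM on HFD, and was not called (log2 fold change 0.62 ± 0.22 SE, adjusted p = 0.0667). All 4 metformin libraries of Asns were above HFD 1, 2 and 3, and without HFD unmatched it was called higher (log2 fold change 0.86 ± 0.19 SE, adjusted p = 0.0105). Sesn2 measured 132, 57.6, 77.5 and 99.1 CPM (log2 fold change 0.30 ± 0.29 SE, adjusted p = 0.489). Trib3 measured 17.1, 10.3, 11.9 and 14.5 CPM (log2 fold change 0.05 ± 0.18 SE, adjusted p = 0.877). Ppp1r15b measured 154, 109.7, 141 and 122 CPM (log2 fold change 0.05 ± 0.11 SE, adjusted p = 0.794) under metformin, each overlapping the HFD libraries. Atf4 measured 72.4, 61.5, 67.4 and 72.7 CPM, against 74.8 to 85.5 CPM on HFD. The metformin values of Atf4 were all under the HFD range and the test did not call it (log2 fold change -0.22 ± 0.07 SE, adjusted p = 0.0532).

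Of the sensors, Xbp1 measured 237, 132, 178 and 163 CPM under metformin (log2 fold change -0.10 ± 0.16 SE, adjusted p = 0.709), and its libraries were spread on both sides of the HFD range. Ern1 measured 55.4, 85.1, 72.8 and 79.2 CPM (log2 fold change 0.31 ± 0.16 SE, adjusted p = 0.18). Eif2ak3 measured 45.2, 47.3, 46.4 and 54.9 CPM (log2 fold change -0.15 ± 0.08 SE, adjusted p = 0.172). Atf6 measured 87.5, 69.4, 85.3 and 84.5 CPM (log2 fold change -0.21 ± 0.08 SE, adjusted p = 0.0715). None was called. Creld2 and Derl3 were high in the single library metformin 2, at 56.3 and 4.46 CPM, against 12.98 to 16.98 and 0.659 to 2.06 CPM in the other metformin libraries. Without metformin 2, Creld2 was called lower under metformin (log2 fold change -0.71 ± 0.14 SE, adjusted p = 0.0298). That library is the one with 2168 CPM of spermatogenic markers, whose part was not tested. The other 10 members were not called, with log2 fold changes of -0.29 (Sel1l) to 0.15 (Ppp1r15a).

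Of the further pathway genes, 4 of 18 folding genes (22.2%) and 6 of 23 translocation and glycosylation genes (26.1%) were lower under metformin, against 7.84% of all genes. The shares were near that of all genes for 1 of 14 degradation genes (7.14%), 2 of 29 ATF4 targets (6.90%) and 1 of 10 kinases and ATF6-like factors (10%). In each list 0 were higher. Sec61b (log2 fold change -0.71 ± 0.12, adjusted p = 0.012), Ostc (log2 fold change -0.51 ± 0.14, adjusted p = 0.0383) and Sec11c (log2 fold change -0.49 ± 0.14, adjusted p = 0.0355) led the translocation genes. P4hb (log2 fold change -0.44 ± 0.11, adjusted p = 0.0245), Erp29 (log2 fold change -0.45 ± 0.12, adjusted p = 0.0345) and the prolyl isomerase Fkbp2 (log2 fold change -0.47 ± 0.14, adjusted p = 0.0409) were the folding genes with the largest change. Edem2 (log2 fold change -0.45 ± 0.09, adjusted p = 0.0141), Creb3 (log2 fold change -0.41 ± 0.10, adjusted p = 0.0232), Psat1 (log2 fold change -0.50 ± 0.15, adjusted p = 0.0468) and the alanyl-tRNA synthetase Aars (log2 fold change -0.31 ± 0.07, adjusted p = 0.0189) were lower as well. Macrophage markers summed to 1287 to 1849 CPM under metformin, against 1979 to 6243 CPM on HFD, and 13 of 14 were called lower. Markers of epididymis and seminal vesicle summed to 25.9 to 55.5 CPM under metformin, against 0.176 to 4.68 CPM on HFD, and 4 of 10 were called higher. The part of these markers was not tested.

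The metformin calls were sensitive to the libraries fitted. The count of members called was 0 with all 16 libraries, where 32 of all 17337 genes tested were called higher and 147 lower. Without the 5 libraries rich in ciliated markers (3 of them metformin) only metformin 1 was left of its group, so no count is given for that fit. The count was 3 without HFD 1, 2 or 3 and 13 without metformin 1. Without HFD unmatched 10 members were called lower and 1 higher.

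The third comparison asks the same of resveratrol, with 3 libraries. Of the 33 genes 5 were called lower (15.2%), against 3.09% of all genes, and 1 was called higher (3.03%), against 1.09% of all genes. The 5 were Calr, Pdia3, Dnajb11, Sdf2l1 and Ddit3, and the 1 was Asns. All 14 chaperones had a negative log2 fold change (median -0.44, against 0.04 over all genes) and 4 were called. The ATF4 arm had a median of 0.15. DESeq2 called 11 members lower and 2 higher, against 1427 lower and 725 higher of the 16185 genes it tested.

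Sdf2l1 measured 12.1, 11.2 and 16.2 CPM under resveratrol, against 20.6 to 41.8 CPM on HFD (log2 fold change -1.40 ± 0.29 SE, adjusted p = 0.036). Dnajb11 measured 29.4, 28.2 and 29.9 CPM, against 37.8 to 55.7 CPM on HFD (log2 fold change -0.75 ± 0.12 SE, adjusted p = 0.0348). Calr measured 348, 337 and 419 CPM, against 446 to 620 CPM on HFD (log2 fold change -0.59 ± 0.14 SE, adjusted p = 0.037). These 3 genes were below the HFD range in every resveratrol library. Pdia3 measured 236, 224 and 278 CPM, against 277 to 400.1 CPM on HFD, where resveratrol 3 and HFD unmatched were level (log2 fold change -0.53 ± 0.13 SE, adjusted p = 0.0435). Ddit3 measured 11.2, 10.8 and 11.9 CPM, against 16.4 to 17.3 CPM on HFD (log2 fold change -0.58 ± 0.14 SE, adjusted p = 0.0393). Asns measured 69.3, 57.8 and 90.03 CPM, against 29.3 to 56.4 CPM on HFD, all resveratrol libraries being higher (log2 fold change 0.89 ± 0.23 SE, adjusted p = 0.0491).

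Sesn2 measured 131, 85.7 and 224 CPM under resveratrol, with resveratrol 3 far above the other 2, and was not called (log2 fold change 0.99 ± 0.31 SE, adjusted p = 0.0862). Trib3 measured 17.4, 17.4 and 20.2 CPM, against 11.02 to 14.1 CPM on HFD (log2 fold change 0.50 ± 0.19 SE, adjusted p = 0.157). The groups of Trib3 did not overlap, without a call. Ppp1r15b measured 139, 124 and 159 CPM (log2 fold change 0.14 ± 0.12 SE, adjusted p = 0.494). Atf4 measured 66.2, 73.7 and 76.5 CPM (log2 fold change -0.15 ± 0.08 SE, adjusted p = 0.273) under resveratrol, both overlapping HFD.

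The remaining genes called on HFD were not called under resveratrol. Hspa5 measured 323, 310.3 and 419.6 CPM (log2 fold change -0.68 ± 0.22 SE, adjusted p = 0.09). Hsp90b1 measured 384, 367 and 425 CPM (log2 fold change -0.34 ± 0.10 SE, adjusted p = 0.0762). Canx measured 242, 228 and 243 CPM (log2 fold change -0.29 ± 0.08 SE, adjusted p = 0.0519). Pdia6 measured 177, 159.8 and 197 CPM (log2 fold change -0.35 ± 0.10 SE, adjusted p = 0.0655). Manf measured 27.5, 26.5 and 34.5 CPM (log2 fold change -0.64 ± 0.24 SE, adjusted p = 0.138). Hyou1 measured 108, 99.98 and 125 CPM (log2 fold change -0.19 ± 0.12 SE, adjusted p = 0.378). Edem1 measured 368, 309 and 367 CPM (log2 fold change -0.42 ± 0.18 SE, adjusted p = 0.191). These 7 genes had negative fold changes that the test did not call. Hsp90b1, Canx, Pdia6 and Edem1 were also below the HFD range in every resveratrol library, while Hspa5, Manf and Hyou1 overlapped it. Without HFD unmatched, Hspa5 was called lower (log2 fold change -0.85 ± 0.14 SE, adjusted p = 0.00252) and Sesn2 higher (log2 fold change 1.18 ± 0.33 SE, adjusted p = 0.0356).

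The sensors were not called under resveratrol. Xbp1 measured 185, 177 and 246 CPM (log2 fold change 0.09 ± 0.18 SE, adjusted p = 0.794). Ern1 measured 57.5, 78.2 and 53.9 CPM (log2 fold change 0.09 ± 0.17 SE, adjusted p = 0.786). Eif2ak3 measured 44.6, 48.9 and 46.5 CPM (log2 fold change -0.21 ± 0.08 SE, adjusted p = 0.169). Atf6 measured 80.2, 78.6 and 73.5 CPM (log2 fold change -0.29 ± 0.08 SE, adjusted p = 0.0634). All resveratrol libraries of Atf6 lay under the HFD range. Creld2 was called lower under resveratrol when metformin 2 was left out (log2 fold change -0.67 ± 0.14 SE, adjusted p = 0.0278). The other 11 members were not called, with log2 fold changes of -0.33 (Sel1l) to 0.39 (Derl1). Among further pathway genes 2 of 23 translocation and glycosylation genes were lower (8.70%, against 3.09% of all genes), Sec61b (log2 fold change -0.52 ± 0.13, adjusted p = 0.0445) and the signal peptidase subunit Spcs3 (log2 fold change -0.47 ± 0.12, adjusted p = 0.0418). Of 10 kinases and ATF6-like factors 1 was lower, Creb3 (log2 fold change -0.46 ± 0.11, adjusted p = 0.0398). Of 29 ATF4 targets 1 was lower (3.45%, near the 3.09% of all genes), the asparaginyl-tRNA synthetase Nars (log2 fold change -0.51 ± 0.13, adjusted p = 0.0446). Another 1 was higher (3.45%, against 1.09% of all genes), the aminotransferase Gpt2 (log2 fold change 0.77 ± 0.18, adjusted p = 0.0386). None of 18 folding and 14 degradation genes was called. Macrophage markers summed to 1458 to 1689 CPM under resveratrol, against 1979 to 6243 CPM on HFD, with 10 of 14 called lower and their part not tested.

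None of the resveratrol calls held in every fit with 1 library less. The count was 0 without resveratrol 1, 2 or 3 and without HFD 1, 2 or 3, and 12 without HFD unmatched. With all 16 libraries 1 member was called, Ddit3, and the log2 fold change of Pdia3 turned to 0.17. In that fit 87 of all 17337 genes tested were called higher and 308 lower.

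Against normal diet the drug-treated groups showed few differences in these genes. Under metformin 1 of 33 members was called, Atf4, which was lower (log2 fold change -0.45 ± 0.07 SE, adjusted p = 0.0124), against 1.71% of all genes called in either direction. The metformin libraries of Atf4 lay at 61.5 to 72.7 CPM, against 90.2 to 99.1 CPM on normal diet. The ATF4 arm had a median log2 fold change of -0.45 and the chaperones of 0.17. Chac1 (log2 fold change -1.16 ± 0.41 SE, adjusted p = 0.153), Trib3 (log2 fold change -0.56 ± 0.18 SE, adjusted p = 0.129), Asns (log2 fold change -0.86 ± 0.22 SE, adjusted p = 0.0635) and Ppp1r15b (log2 fold change -0.41 ± 0.11 SE, adjusted p = 0.0726) were not called. Of 29 further ATF4 targets 1 was called higher, Psph, of serine synthesis (log2 fold change 0.66 ± 0.11, adjusted p = 0.0161), and 1 lower, Slc3a2, an amino acid transporter chain (log2 fold change -0.48 ± 0.10, adjusted p = 0.0315), each 3.45% of the list.

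Under resveratrol edgeR called 0 members against normal diet, and 0.148% of all genes. DESeq2 called 3 members, against 223 genes higher and 176 lower of the 15755 it tested. By edgeR 7 members had an unadjusted p under 0.05, against 1724 of all 17535 genes tested. The members with the smallest p were Atf4 (log2 fold change -0.38 ± 0.08 SE, adjusted p = 0.0964), Pdia6 (log2 fold change 0.33 ± 0.10 SE, adjusted p = 0.23) and Edem1 (log2 fold change 0.58 ± 0.17 SE, adjusted p = 0.236). Between metformin and resveratrol edgeR called 0 members, and 0.0114% of all genes. DESeq2 called 0 members, against 25 genes higher and 4 lower of the 23511 it tested. By edgeR 3 members had an unadjusted p under 0.05, against 1228 of all 17535 genes tested. The interval of the difference still left room for change: for Hspa5 the log2 difference was 0.05 (95% interval -0.41 to 0.51), for Sdf2l1 0.10 (-0.51 to 0.71), for Asns -0.27 (-0.77 to 0.23) and for Sesn2 -0.68 (-1.35 to -0.01). A p above the threshold does not show that the drugs act alike.

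Averaged over members, the chaperone group lay -0.03 to 0.31 log2 units from the normal diet mean in metformin libraries and 0.02 to 0.27 in resveratrol libraries, against 0.35 to 0.71 on HFD. The ATF4 arm lay at -0.81 to -0.10 under metformin and -0.44 to 0.07 under resveratrol, against -0.58 to -0.32 on HFD and -0.06 to 0.17 on normal diet. On this mean the drug-treated libraries lay below the HFD libraries in the chaperones, by a small margin to HFD unmatched. On the summed CPM of the same 14 genes the groups overlapped, with 2634 CPM in metformin 1 and 2606 CPM in HFD unmatched, and single chaperones such as Hspa5, Hsp90b1 and Dnajb11 overlapped too. In the ATF4 arm both drug-treated groups overlapped HFD.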

How the data were processed

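RNA of 16 libraries was sequenced. Per the file headers, the deposited tables hold raw counts per mRNA transcript and FPKM, which followed from these counts, transcript length and library total to within 2.63e-05%. The tools fastp and HISAT2 and the build GRCm38 stand in the submitters' processing notes. The counting tool, annotation and strand setting were not given in the sources used here. The mRNA header had 1 name fewer than its lines had cells, and 5 broken records were rejoined. Columns were therefore read by number and checked with the library totals implied by FPKM in the lncRNA table, which differed from a library's own total by at most 0.0418% and from any other by at least 0.489%. In 14 of 16 columns the name matched a sample title, and the 2 unmatched ones gave a group only. A further 4 per-sample columns were not used.

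Counts of 91879 transcripts were summed to 27150 genes. Resveratrol 4 was left out. The 15 libraries of 4 groups were fitted together with edgeR 4.0.16 (filterByExpr, TMM, robust quasi-likelihood, two-sided) in R 4.3.3, adjusting over 17535 genes with a threshold of 0.05. DESeq2 1.42.0, RLE scaling, other filters, a ciliated covariate and fits without certain libraries were alternatives. CPM values are TMM-scaled. CPM per kb are sums over transcripts with no TMM scaling.

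Members were named by a rule: every member is accounted for, with all library values for those called in 1 of the first 3 comparisons and for 8 genes that the rule always names; of other lists, the 3 called genes with the largest change per list and comparison. The members and lists were chosen with earlier results of these data known, so no list is independent support. Replicate numbers give no pairing. Promoter windows are from RefSeq (GRCm38.p6). Protein sequences were not used here.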

Additional observations from a re-analysis of the deposited data

Results flagged for a closer look

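In 99 sets of 4 libraries (33 genes in 3 groups; resveratrol with 3 libraries was not examined) the highest or lowest library was compared with the rest by Dixon's criterion at the 95% level, which flags about 1 in 20 sets by chance. It flagged 5. Hspa5 was 323 CPM in HFD unmatched, against 611 to 662 CPM in the other HFD libraries. Derl1 was 292 CPM in HFD unmatched, against 217 to 229 CPM in the others. Creld2 was 56.3 CPM in metformin 2, against 12.98 to 16.98 CPM in the other metformin libraries. Atf6 was 69.4 CPM in metformin 2, against 84.5 to 87.5 CPM. Asns was 93.7 CPM in normal diet 2, against 113 to 115 CPM in the other normal diet libraries.

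The library left out of the comparisons, resveratrol 4, with 12131 CPM of Crisp1, was more than 2 times above the highest of the other 15 libraries for 7 members when scaled with all 16. Canx was 1160 CPM, against 230 to 312 CPM in the other 15 libraries. Pdia3 was 861 CPM, against 217 to 399 CPM. Pdia4 was 442 CPM, against 126 to 172 CPM, and Pdia6 was 850 CPM, against 139 to 243 CPM. Manf was 140 CPM, against 20.9 to 52.2 CPM, and Hyou1 was 345 CPM, against 80.5 to 140 CPM. Ern1 was 501 CPM, against 52.0 to 97.2 CPM.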

How the results depend on the processing

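On HFD against normal diet the count of members called, 18, was 16 to 22 under every alternative other than all 16 libraries, where it was 3, and 11 to 20 with 1 library left out. Under metformin against HFD the count was 8. It was 0 with all 16 libraries, 15 with DESeq2 and 3 with the 2 groups compared alone. It was 0 with the ciliated markers as a covariate and 3 to 13 with 1 library left out. The fits without the libraries rich in those markers kept only metformin 1 of its group, so their metformin counts are not given. They kept resveratrol 1 and 3 of the resveratrol group. Under resveratrol against HFD the count was 6. It was 1 with all 16 libraries, 13 with DESeq2, 0 with the 2 groups alone, 11 without the 2 unmatched libraries, 0 without the ciliated-rich libraries, 11 with the ciliated covariate, 16 without those libraries and HFD unmatched, and 0 to 12 with 1 library left out. Metformin against normal diet gave 1, but 0 with all 16 libraries, 3 with DESeq2 and 0 with the 2 groups alone. It gave 2 with the covariate and 1 to 3 with 1 library left out. Resveratrol against normal diet gave 0, but 3 with DESeq2 and 0 to 1 with 1 library left out. Metformin against resveratrol gave 0 in every fit with more than 1 metformin library, leaving out 1 library included (0 to 0). The fit without ciliated-rich libraries and HFD unmatched was chosen after seeing the data. The cause of these changes was not tested. For single called genes 1 value reversed: Pdia3 under resveratrol against HFD was 0.17 with all 16 libraries, against -0.53 with 15. Over the 11 alternatives that do not leave out single libraries in turn, values of called genes kept and lost their call 178 and 20 times on HFD, 47 and 41 under metformin and 47 and 18 under resveratrol against HFD, and 7 and 4 under metformin against normal diet. Over the 15 fits without 1 library these were 235 and 35, 83 and 37, 42 and 48, and 15 and 0. The 47 and 41 and the 7 and 4 include the fits that kept only metformin 1 of its group. No paired analysis was possible because the replicate numbers only follow accession order. With 3 or 4 libraries a group and counts near 1 CPM, changes in Derl3 could not be resolved.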

Other observations

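The division of counts among transcripts also varied for other members. The 2016-base Asns transcript ENSMUST00000115542 held 25.0% of Asns counts in metformin 2, 10.8% in normal diet 2 and 19.5% in normal diet 3, and 61.2% to 75.85% in the other 12 of the 15 libraries, while the 2001-base ENSMUST00000031766 held most of the rest. The main Xbp1 transcript, ENSMUST00000063084, held 81.1% to 86.0% of Xbp1 counts in the 15 libraries. These values were noticed after the data had been examined, and no test was made of them.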
